A study of Mus musculus with 7 samples.

Results

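The genes described here are 10 genes by which hepatocytes build triglyceride, break it down and wrap it in lipid droplets, namely Gpam, Agpat2, Lpin1, Lpin2, Dgat1, Dgat2, Pnpla2, Pnpla3, Plin2 and Cidec. They were chosen by gene symbol among the 19938 genes that have a probe set with a single symbol on the array. Each had 1 such probe set, so that the highest of several never had to be taken, and all 10 had a mean signal of more than 85 units after the log was undone, which is the minimum the study's methods set for an expressed gene. Their mRNA was followed in mouse liver on 7 Affymetrix Mouse Gene 1.0 ST arrays, spaced by 4 h over ZT02 to ZT26. ZT counts the hours after lights on, and lights go off at ZT12; the last array repeats the first clock time a day later. The mice were C57/BL6 males aged 9 to 11 weeks when housing under 12 h of light and 12 h of darkness began. They had free access to food for 2 weeks and then food only from ZT12 to ZT24 for 7 days. Each array received 1 pool with 500 ng of RNA from each of 5 perfused livers, so mouse-to-mouse differences are hidden inside each pool, and replicate arrays were absent at every time.

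Triglyceride is assembled on glycerol-3-phosphate. Glycerol-3-phosphate acyltransferases attach the first fatty acid, acylglycerol-phosphate acyltransferases the next one, lipins remove the phosphate to leave diacylglycerol, and diacylglycerol acyltransferases add the last fatty acid. The product is stored in droplets coated by perilipins and enlarged by CIDE proteins, and patatin-like lipases release the fatty acids again. The liver makes triglyceride from incoming and newly made fatty acids, exports it in lipoproteins and burns its fatty acids during fasting.

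Cidec, Agpat2, Dgat2 and Lpin1 were called rhythmic with all 7 arrays, but with 1 array left out only Lpin1 was ever called, without ZT18. The 10 mRNAs had their highest arrays at different hours. Lpin1, Lpin2, Dgat1, Dgat2, Pnpla2 and Cidec were highest at ZT10 or ZT14, around the change from light to dark, Gpam, Agpat2 and Pnpla3 were highest at ZT18, and Plin2 was highest at ZT26 and lowest at ZT14. The fitted peak was 4.47-fold above the trough in Lpin1 and 1.31-fold in Dgat2. Rhythm was tested by 24-h cosine fits to the log2 signals, with limma's moderated F-test on both terms of the curve and p-values adjusted (Benjamini-Hochberg) over 12076 probe sets, those that name 1 gene and exceed 85 units on average. At an adjusted p under 0.05, 4 of the 10 genes were called rhythmic, namely Cidec, Agpat2, Dgat2 and Lpin1, against 4.47% of all tested probe sets. At an unadjusted p under 0.05 there were 7 of the 10, against 25.7%. Over the 10 genes the median amplitude, the fitted distance from mean to peak, was 0.30 in log2 (quartiles 0.21 and 0.42), and over all tested probe sets it was 0.09 (quartiles 0.05 and 0.17). Between lowest and highest array the signal differed more than 1.5-fold in 8 of the 10 genes, against 16.3% of tested probe sets, and by more than 2-fold in 4, against 4.27%. In 3 genes, Gpam, Lpin2 and Pnpla3, the highest array stood more than 1.3-fold above the next, against 2.46%, a limit chosen after the values were seen. The highest array lay at ZT10 or ZT14 in 6 genes, against 36.4%, and at ZT18 in 3, against 13.3%, times that were not set in advance. These p-values rest on the scatter of pools around the fitted curve and not on the spread between mice.

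**Figure D1:**
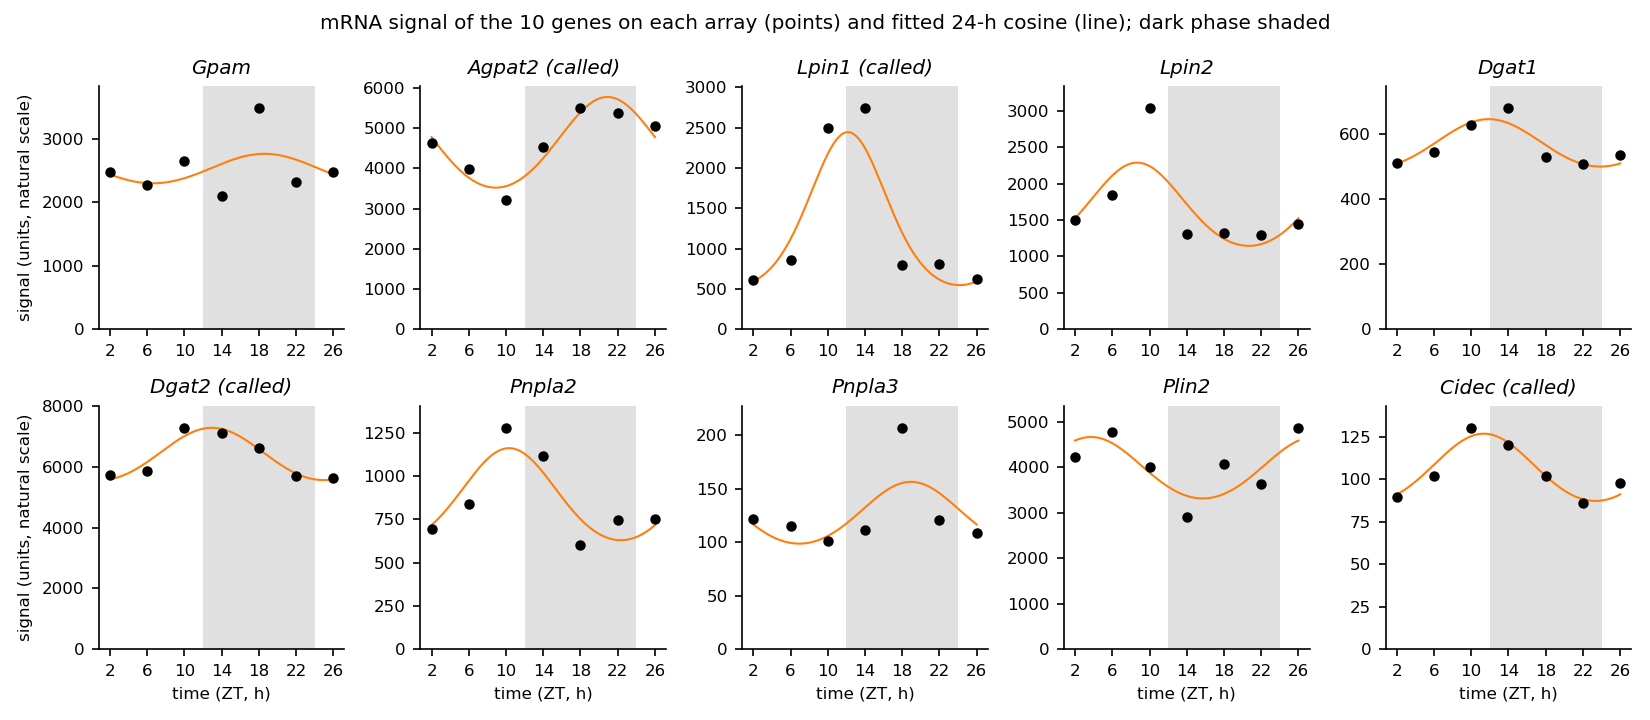
Signal of each gene in units on the natural scale (vertical axis, starting at 0) on the 7 arrays (points) against time in hours after lights on, with the fitted 24-h cosine as a line and the dark phase, when food was given, shaded; called genes had an adjusted p under 0.05. Lpin1 stands at 2488 and 2741 units at ZT10 and ZT14 and at or below 857.9 units on the other arrays. Lpin2 is highest at ZT10, and Gpam and Pnpla3 are highest at ZT18.

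The calls did not hold with an array left out, except in 1 case. All 4 lay close to the threshold (adjusted p from 0.0396 to 0.0493), and with 1 array left out in turn no more than 1 gene was called, Lpin1 without ZT18. The share of called probe sets over the whole array was between 0.108% and 2.58% in the same fits. The closest thing to a repeat is the clock time sampled on both days. ZT26 and ZT02 differed in the 10 genes by a median of 0.08 in log2 and by at most 0.20, in Plin2, while over all tested probe sets the median was 0.09 and the 95th percentile 0.34. This 95th percentile serves below as a yardstick, and arrays of a gene that lie closer than 0.34 in log2 are not separated by it. It comes from 2 pools of different mice and is no test.

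**Figure D2:**
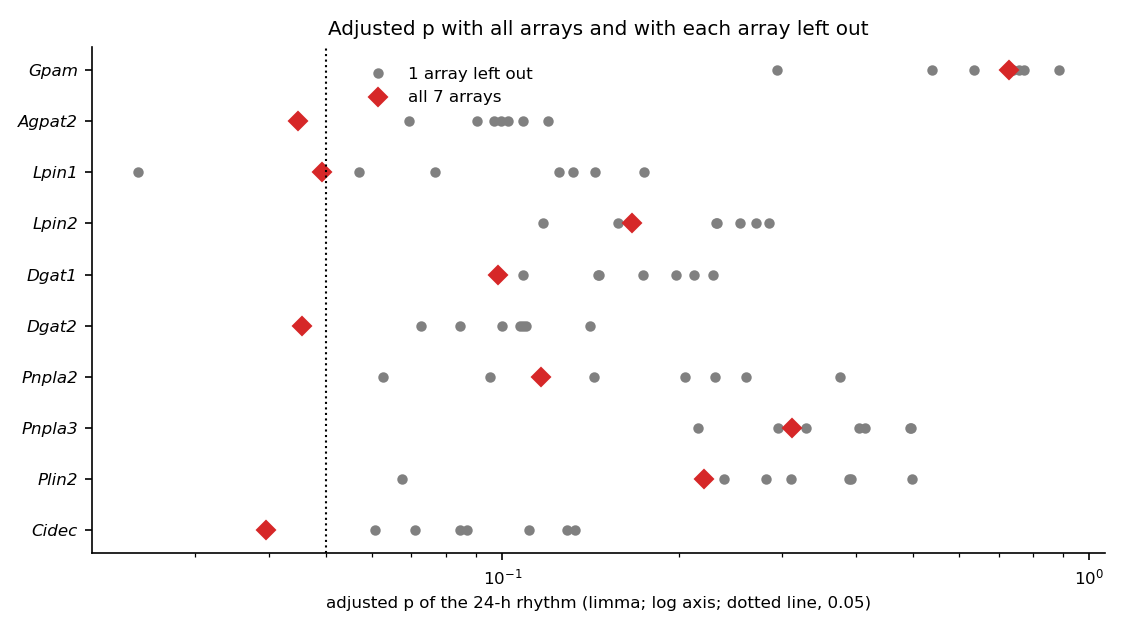
Adjusted p of the 24-h rhythm (horizontal log axis, limma) of each gene with all 7 arrays (diamonds) and with each array left out in turn (dots); the dotted line marks 0.05. Of the 4 genes left of the line with all arrays, only Lpin1 has a dot there, the fit without ZT18.

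Array medians lay between 6.371 and 6.396 in log2, and arrays correlated with the other 6 at a mean r between 0.991 and 0.993. All 7 hepatocyte markers, among them Alb, Ttr and Hnf4a, were above 85 units, and their summed signal was between 87458 (ZT26) and 91325 units (ZT14). Of 5 adipocyte markers with a probe set, 1 (Fabp4) was above 85 units, Adipoq and Lep averaged 12.4 and 27.4 units, and the sum was between 306.4 (ZT14) and 330.6 units (ZT06). The 9 Kupffer cell markers, all above 85 units and 6 of them called rhythmic, had their lowest sum at ZT10 (5040 units) and their highest at ZT26 (8142 units), and the 6 stellate cell markers, all above 85 units, likewise ran from 6663 units at ZT10 to 8083 at ZT22. Of the 4 endothelial markers all were above 85 units, with a sum of 1988 to 2430 units, and of 4 lymphocyte markers 2 were, with a sum of 273.2 to 357.1 units. In RNA of whole liver, fewer cells of a type and less RNA per cell cannot be told apart.

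Both genes of the acylation steps were highest at ZT18, with similar values at ZT22 and ZT26 in Agpat2 and on a single array in Gpam. Gpam encodes the mitochondrial glycerol-3-phosphate acyltransferase, which commits fatty acids to glycerolipids. Its signal was 2474, 2264, 2656, 2094, 3483, 2325 and 2481 units from ZT02 to ZT26. ZT18 was 1.31-fold above the next array, ZT10, and 1.66-fold above the lowest, ZT14, and the other 6 arrays were not separated from their neighbours in rank by the yardstick. A cosine described 16.4% of its variance (amplitude 0.13, standard error 0.12, limma, adjusted p = 0.730). Without ZT18 the amplitude was 0.10 and the peak moved by 10.5 h.

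Agpat2 encodes an acylglycerol-phosphate acyltransferase whose loss causes lipodystrophy in people. Its signal was 4633, 3981, 3228, 4528, 5502, 5375 and 5064 units from ZT02 to ZT26. It fell from ZT02 to ZT10, rose 1.40-fold between ZT10 and ZT14 and had its highest values from ZT18 to ZT26. Neighbours in rank were not separated by the yardstick, and neither ZT02 nor ZT14 was separated from the highest array, ZT18. The fitted peak lay at ZT20.9 (standard error 0.55 h) with a change of 1.64-fold (amplitude 0.36, standard error 0.06, limma, adjusted p = 0.0448), and the cosine described 88.3% of the variance. It was called in none of the fits with 1 array left out (adjusted p 0.0694 to 0.120). The sums of the Kupffer and stellate cell markers were lowest at ZT10 as Agpat2 was. Dcn gave 4439 of the 6663 units of the stellate sum at ZT10. Among the single markers, Reln was lowest at ZT06, Des, Pdgfrb, Adgre1 and Lyz2 at ZT14 and the others at ZT10. The part of these cells in the course of Agpat2 was not tested.

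The lipins had the widest ranges of the 10 genes. Lpin1 and Lpin2 encode phosphatidate phosphatases that form diacylglycerol, and lipin 1 also acts in the nucleus as a coactivator of genes for fatty acid oxidation. Lpin1 had 606.8, 857.9, 2488, 2741, 795.6, 810.6 and 617.8 units from ZT02 to ZT26. ZT10 and ZT14 were not separated from each other (1.1-fold) and stood together above all other arrays, since the signal climbed 2.90-fold between ZT06 and ZT10 and dropped 3.44-fold between ZT14 and ZT18. Among the low arrays the yardstick parted ZT06, ZT18 and ZT22 from ZT02 and ZT26. The fitted peak lay at ZT12.2 (standard error 0.690 h), at lights off, with an amplitude of 1.08 (standard error 0.18, limma, adjusted p = 0.0493). With 1 array left out the fold ranged from 3.67 (without ZT14) to 5.57 (without ZT22), and the call held only without ZT18 (adjusted p = 0.0240, highest 0.174). With 12-h terms added to the model, Lpin1 was the only one of the 10 genes called (limma, adjusted p = 0.0278). These terms allow a narrower peak but leave fewer residual degrees of freedom from which to measure the scatter.

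Lpin2 was likewise high at ZT10 but not at ZT14. Its signal was 1506, 1839, 3036, 1314, 1327, 1292 and 1443 units from ZT02 to ZT26, with ZT10 1.65-fold above the next array and the only one that the yardstick set apart from its neighbour in rank. The yardstick also parted ZT06 from ZT14, ZT18, ZT22 and ZT26. Lpin2 was 2.31-fold lower at ZT14, when Lpin1 was at its highest, than at ZT10. The cosine (amplitude 0.50, standard error 0.15, peak ZT8.67) was not called (limma, adjusted p = 0.167), and without ZT10 its amplitude was 0.25. The ratio of Lpin1 to Lpin2 within an array was at 0.519 of its 7-array mean at ZT02, 1.06 at ZT10, 2.69 at ZT14 and 0.773 at ZT18. A 24-h cosine fitted to the log2 of this ratio described 72.7% of the variance of the log2 values. The p-value was 0.0246 (exact permutation test over the 5040 orders of the arrays, two-sided), and 0.0738 after adjustment over the 3 pairs compared. With 1 array left out this p ranged from 0.00278 (without ZT18) to 0.167 (without ZT14).

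The promoters of both lipins are shown because both mRNAs were high at ZT10 and only that of Lpin1 was high at ZT14. The set of RefSeq (GRCm38.p6) promoter windows used held none for Dgat1 and Dgat2, and any window of these genes on 1 excluded chromosome was left out. This left 12 windows for 8 of the 10 genes. The 250 bases before each start were searched on both strands for 8 motifs. These were the E-box CACGTG, both forms of the D-box, TTATGTAA and TTACGTAA, the cyclic AMP response element TGACGTCA, a sterol response element TCACNCCAC, the ROR and REV-ERB core TAGGTCA, the nuclear receptor core AGGTCA, which lies within TAGGTCA, and the glucocorticoid response element. Matches are in capitals, 5′ to 3′ on the strand of the gene.
Lpin1, chr12:16610967-16611216, minus strand: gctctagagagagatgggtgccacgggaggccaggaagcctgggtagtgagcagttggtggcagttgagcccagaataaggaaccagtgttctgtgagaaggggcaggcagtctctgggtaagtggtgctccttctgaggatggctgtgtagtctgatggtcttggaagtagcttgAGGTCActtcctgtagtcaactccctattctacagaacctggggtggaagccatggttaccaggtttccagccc
Lpin2, chr17:71183282-71183531, plus strand: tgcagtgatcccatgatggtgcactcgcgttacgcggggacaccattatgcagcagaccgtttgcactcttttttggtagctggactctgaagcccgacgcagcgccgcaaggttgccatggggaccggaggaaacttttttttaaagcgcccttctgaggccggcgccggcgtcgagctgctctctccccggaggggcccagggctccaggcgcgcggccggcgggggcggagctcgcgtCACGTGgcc
The capitals mark a nuclear receptor core 74 bases before the Lpin1 start and an E-box 9 bases before the first of 3 Lpin2 starts. The nuclear receptor core occurs in 14% and the E-box in 6.02% of all 32851 windows of this length. An E-box was found in 1 of the 12 windows of these genes and a nuclear receptor core in 3 (Gpam, Lpin1 and Plin2), while no match to either D-box, the sterol response element or the glucocorticoid response element lay in these windows. A match is a description of the letters, not a site.

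Both enzymes of the last step were highest around lights off, with small ranges. Dgat1 and Dgat2 encode the diacylglycerol acyltransferases, which are unrelated in sequence, and DGAT2 is the one tied to newly made fatty acids. Dgat2 had 5742, 5877, 7277, 7114, 6629, 5691 and 5634 units from ZT02 to ZT26, with the highest array 1.29-fold above the lowest. Its course was close to a cosine, which described 93.3% of the variance, with a peak at ZT13.0 (standard error 0.693 h, amplitude 0.19, standard error 0.03, limma, adjusted p = 0.0455). The call was lost in every fit with 1 array left out (adjusted p 0.0727 to 0.141), although the fold stayed between 1.27 and 1.34. Dgat1 had 511.4, 543.1, 625.3, 678.2, 529.7, 507.3 and 533.8 units, with a fitted peak at ZT11.9 and an amplitude of 0.18 (standard error 0.04, limma, adjusted p = 0.0985). Neighbours in rank were not separated by the yardstick in either gene. The ratio of Dgat2 to Dgat1 stayed between 0.936 and 1.12 of its mean. No 24-h course was found in the log2 of this ratio (exact permutation test, two-sided, p = 0.641, also after adjustment). For this pair the p-value went down to 0.0611 without ZT14.

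**Figure D3:**
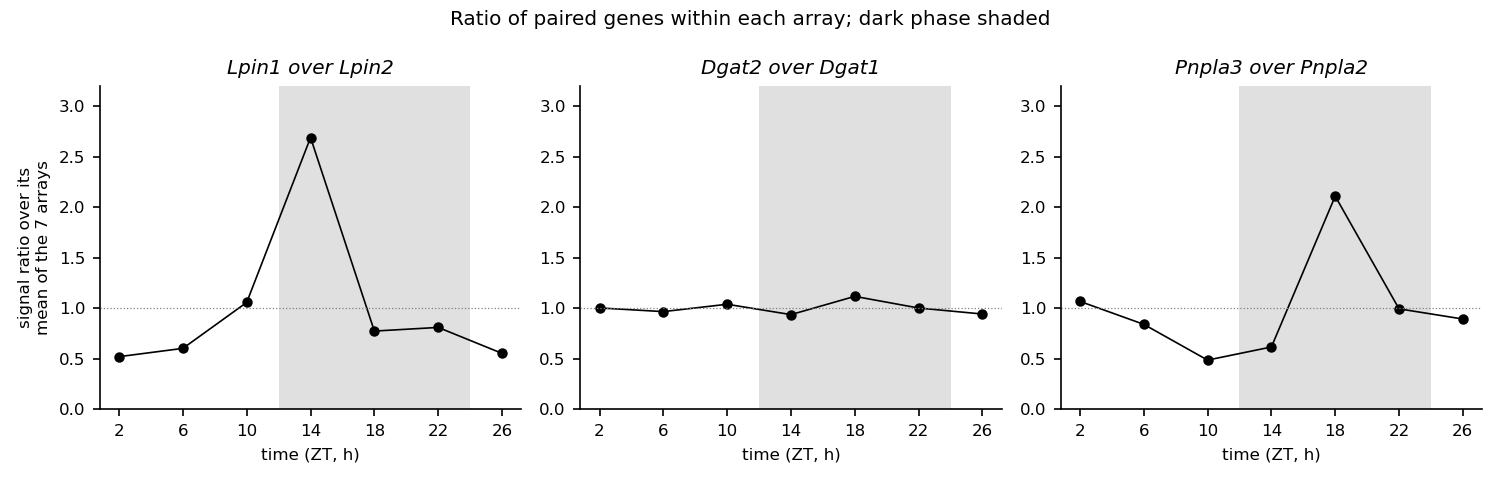
Ratio of the signals of paired genes within each array, divided by the mean of the 7 ratios (vertical axis, no unit), against time in hours after lights on, dark phase shaded. Lpin1 over Lpin2 stands at 2.69 at ZT14 and Pnpla3 over Pnpla2 at 2.11 at ZT18, whereas Dgat2 over Dgat1 stays between 0.936 and 1.12.

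The patatin-like lipases were highest at different hours. Pnpla2 encodes adipose triglyceride lipase, the enzyme that starts the breakdown of stored triglyceride and that is known to be induced in fasting. Its signal was 696.7, 838.0, 1278, 1113, 601.4, 746.9 and 748.9 units from ZT02 to ZT26, so that it was highest in the last hours before food and still high at ZT14, and at its lowest value at ZT18, 1.85-fold below ZT14. ZT10 and ZT14 were set apart from the other arrays by the yardstick but not from each other (1.15-fold). The fitted change was 1.85-fold with a peak at ZT10.3 (amplitude 0.44, standard error 0.11), which was not called (limma, adjusted p = 0.116). Leaving out 1 array gave adjusted p from 0.0625 to 0.377.

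Pnpla3 encodes adiponutrin, a relative of that lipase which sits on droplets, is known to be induced by feeding and insulin, and in people carries a common variant linked to fatty liver. It had 121.3, 114.8, 101.2, 111.8, 207.0, 121.0 and 109.0 units from ZT02 to ZT26. ZT18, in the middle of the feeding window, was 1.71-fold above the next array, while the other 6 arrays lay between 101.2 and 121.3 units, close to the expression minimum. The cosine (amplitude 0.33, standard error 0.14, peak ZT18.9) was not called (limma, adjusted p = 0.311), and without ZT18 its amplitude was 0.09. The ratio of Pnpla3 to Pnpla2 was lowest at ZT10, at 0.485 of its mean, and highest at ZT18, at 2.11, where Pnpla3 had its highest and Pnpla2 its lowest signal. A 24-h cosine fitted to this ratio did not pass (exact permutation test, two-sided, p = 0.180, adjusted over the 3 pairs 0.270), and the p-value was 0.531 without ZT10 and 0.0583 without ZT18. The Pnpla3 promoter is shown because it holds the only cyclic AMP response element in the 12 windows, 46 bases before the start (capitals), a motif found in 1.55% of all windows.
Pnpla3, chr15:84167566-84167815, plus strand: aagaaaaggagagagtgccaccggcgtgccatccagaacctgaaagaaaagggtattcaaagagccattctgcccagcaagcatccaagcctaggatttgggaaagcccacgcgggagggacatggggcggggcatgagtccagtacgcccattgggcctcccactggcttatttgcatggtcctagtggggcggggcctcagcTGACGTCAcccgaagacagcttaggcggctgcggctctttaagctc

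The genes of the droplet proteins were highest at different times. Plin2 encodes perilipin 2, the main coat protein of droplets in hepatocytes, whose protein is stabilised by stored lipid. It had 4226, 4783, 4009, 2914, 4075, 3637 and 4868 units from ZT02 to ZT26, with the lowest array, ZT14, 1.67-fold below ZT26. No neighbours in rank were set apart by the yardstick, and ZT02 and ZT26, at the same clock time, differed by 0.20 in log2, more than in any other of the 10 genes. The fitted peak at ZT3.72 (amplitude 0.25, standard error 0.08) was not called (limma, adjusted p = 0.220). With 1 array left out the amplitude ranged from 0.15 (without ZT14) to 0.40 (without ZT18, adjusted p = 0.0675). The sum of Kupffer cell markers was also highest at ZT26 (8142 units) and was lower at ZT10 (5040 units) and ZT14 (5550 units). At ZT22 and ZT06, where Plin2 had 3637 and 4783 units, this sum was 8029 and 6546.5 units, so the 2 courses differed there. The part of Kupffer cells in the course of Plin2 was not tested. The Plin2 promoter holds the only ROR and REV-ERB core in the 12 windows, 218 bases before the start and on the opposite strand (capitals), a motif found in 2.23% of all windows.
Plin2, chr4:86670060-86670309, minus strand: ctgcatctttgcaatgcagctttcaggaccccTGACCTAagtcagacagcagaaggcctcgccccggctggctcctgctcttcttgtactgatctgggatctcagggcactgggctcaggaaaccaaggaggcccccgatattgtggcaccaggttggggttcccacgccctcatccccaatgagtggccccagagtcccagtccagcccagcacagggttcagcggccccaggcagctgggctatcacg

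Cidec encodes the droplet-fusing protein known as FSP27, which is abundant in fat tissue and low in lean liver. It had 89.6, 102.2, 130.3, 120.5, 102.2, 86.1 and 97.9 units from ZT02 to ZT26, all above the minimum of 85 units but near it. The fitted peak lay at ZT11.4 (standard error 0.594 h) with a change of 1.45-fold (amplitude 0.27, standard error 0.04, limma, adjusted p = 0.0396), the smallest adjusted p of the 10 genes. It too was called in none of the fits with 1 array left out (adjusted p 0.0607 to 0.133). Of the 5 adipocyte markers, 1 (Fabp4) was above 85 units, and their sum was 320.6 units at ZT10, where Cidec was highest, within a range of 306.4 to 330.6 units over the arrays. The part of adipocyte RNA in the course of Cidec was not tested.

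**Figure D4:**
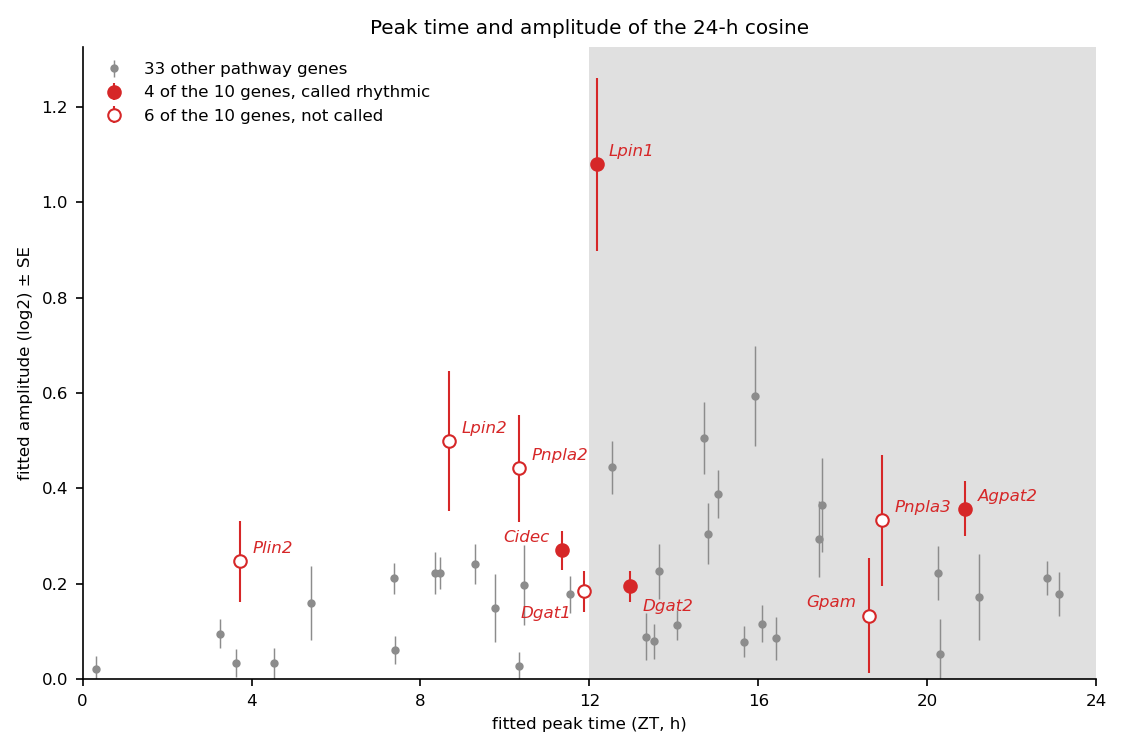
Fitted amplitude in log2 with its standard error (vertical axis) against fitted peak time in hours after lights on (horizontal axis) for the 4 called genes (filled), the 6 others of the 10 (open) and 33 further genes of the pathway (grey), dark phase shaded. Lpin1 stands alone at 1.08, and 6 of the 10 genes lie between ZT8 and ZT14.

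Between ZT8 and ZT14, a window not set in advance, lay the fitted peaks of 6 of the 10 genes, against 25.7% of all tested probe sets. The window also held 3 of the 4 called genes, against 26.7% of those called. Synthesis (Lpin1, Lpin2, Dgat1, Dgat2), breakdown (Pnpla2) and storage (Cidec) were all among the 6, of which Lpin2, Dgat1 and Pnpla2 were not called. Without ZT10 the fitted peak of Lpin2 moved to ZT7.07, outside the window. When the arrays of the dark phase, with food (ZT14, ZT18 and ZT22), were set against those of the light phase (ZT02, ZT06, ZT10 and ZT26), no gene of the 10 and none of the 12076 probe sets passed limma's test (0%, and 11.2% at an unadjusted p under 0.05). The 1 gene of the 10 at an unadjusted p under 0.05 was Plin2, with a mean of 11.78 in the dark and 12.12 in the light on the log2 scale (difference -0.35, standard error 0.13, limma, adjusted p = 0.408). Without ZT14 this difference was -0.21, and the unadjusted p was above 0.05 without ZT06, ZT14, ZT22 or ZT26. Light and food changed together in this design and cannot be told apart.

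Other genes of the pathway were compared by a list of 44 with a probe set. Of these, 33 were tested and 5 were called rhythmic (15.2%, against 4.47% of all tested probe sets), with a median amplitude of 0.18. The other 11 had a mean at or below 85 units, including the monoacylglycerol acyltransferases Mogat1 and Mogat2 and the adipocyte coat protein Plin1. The acylation step held 2 called genes of 7. Agpat1, a further acylglycerol-phosphate acyltransferase, had 170.6, 185.2, 251.7, 320.3, 259.8, 230.7 and 192.5 units from ZT02 to ZT26 with a peak at ZT15.0 (1.71-fold, limma, adjusted p = 0.0297); that of Agpat2 lay at ZT20.9. Lclat1, a lysocardiolipin acyltransferase, changed 1.36-fold with a peak at ZT8.46 (adjusted p = 0.0390). Of 4 phosphatidate phosphatases 1 was called, Lpin3, at a mean of 88.8 units and 1.34-fold with a peak at ZT7.36 (adjusted p = 0.0414). Its signal was below the minimum of 85 units at ZT18 (74.3 units) and ZT22 (79.5 units), so that its mean passed the minimum through the arrays where it was high.

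Among 11 tested genes of lipolysis, Mgll was called. It encodes monoacylglycerol lipase, which completes the breakdown that Pnpla2 starts, and it had 868.8, 1329, 1511, 2070, 1872, 1340 and 1104 units from ZT02 to ZT26, with a 2.02-fold change and a peak at ZT14.7 (limma, adjusted p = 0.0381). G0s2 encodes an inhibitor of the Pnpla2 product. Its signal was 334.2, 354.2, 358.2, 717.7, 679.3, 371.8 and 306.5 units, high at ZT14 and ZT18 and at similar values on the other 5 arrays, and its 2.28-fold fitted change was not called (limma, adjusted p = 0.0562), except without ZT10 (0.0311). Ces1d, a carboxylesterase of hepatocytes that hydrolyses triglyceride, had an amplitude of 0.29 (adjusted p = 0.136).

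Among 11 tested droplet genes, Fitm2 was called. It encodes an endoplasmic reticulum protein needed for droplets to form, and it had 259.5, 347.6, 472.9, 526.0, 350.3, 314.3 and 295.9 units from ZT02 to ZT26, with a peak at ZT12.5 (1.85-fold, limma, adjusted p = 0.0277), beside Lpin1, Dgat1 and Dgat2. Plin5, a coat protein that links droplets to mitochondria, was highest at ZT14 (598.1 units) and lowest at ZT10 (314.9 units), with an amplitude of 0.36 that was not called (adjusted p = 0.136), and Gpat4, an acyltransferase of the endoplasmic reticulum, was also highest at ZT14 (973.6 units, amplitude 0.30, adjusted p = 0.0779). With 1 array left out, Agpat1 and Fitm2 were called without ZT18 or ZT22 only (highest adjusted p 0.125 and 0.117), and Mgll, Lclat1 and Lpin3 in no such fit (highest 0.155, 0.118 and 0.125, limma).

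The mRNAs closest in course to the widest 3 of the 10 genes were sought among 1972 tested probe sets with a highest array more than 1.5-fold above the lowest. By Pearson's r over the 7 arrays, which so few points make high for many probe sets, those nearest to Lpin1 were Fbxo31 (0.99), Adarb1 (0.988) and Slc19a1 (0.986). For Lpin2 they were Bach1 (0.986), Dedd2 (0.981) and Bud13 (0.978), and for Pnpla2 they were Tgfbr3 (0.980), Anxa7 (0.969) and Shld1 (0.963). Within the 10 genes, Lpin1 was closest to Dgat1 (0.952) and Pnpla2 (0.901), Cidec to Dgat1 and Dgat2 (0.904 each), and Agpat2 ran opposite to Lpin2 (-0.930). These values describe 7 arrays that all genes share and carry no test.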

How the data were processed

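Total RNA of mouse liver was measured on 7 Affymetrix arrays, 1 pool of 5 mice per time point. The authors deposited log2 signals made with RMA in Affymetrix Expression Console 1.1.2637.26569, as the submitters' processing notes name them, so background correction, normalization between arrays and the summary over probes were done before deposit. RMA pulls arrays to a common distribution, so a change shared by most mRNAs would not be seen. Of 35556 probe sets, 21789 had a single gene symbol in the platform annotation, 1621 several and 12146 none. Cosine fits (4 residual degrees of freedom) were made with lmFit and eBayes of limma 3.58.1 under R 4.3.3. They were checked on simulated data with independent noise, where recovery was required only of amplitudes of 1 or more in log2. Of the members called, only Lpin1 had such an amplitude. The named genes were all 10 members, the called genes of a wider pathway list with the 4 of largest amplitude among the rest, and the 3 genes closest to each of the 3 members with the widest range. Genes and lists were chosen with earlier results of these data known. Log2 ratios of paired genes were tested by exact permutation. Alternatives left out arrays or changed the filter, normalization, variance model, shape, test or scale. Units are 2 to the power of the log2 signal. Signals of different probe sets cannot be compared as levels. The number of arrays limits the precision.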

Additional observations from a re-analysis of the deposited data

How the results depend on the processing

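Of the 16 alternatives to the cosine fit, the count of 4 called genes among the 10 stayed at 4 with arrays centred on their medians, with quantile normalization and with an intensity trend and robust prior, and was 3 of the 8 genes left with a minimum of 170 units. The share of all tested probe sets called was 4.72%, 6.39%, 6.14% and 7.82% under these settings in the same order, higher than the 4.47% of the main fit. The count among the 10 was 1 with 12-h terms added. It was 0 with the mean of ZT02 and ZT26 as 1 point, with no filter on the mean, with Fisher's test for 1 period (on the 6 arrays without ZT26) and on the natural scale with an ordinary F-test. The count over all probe sets, 540, was 353, 93, 57, 0 and 1 under these 5 settings in the same order, with 3079, 2872, 3506, 1440 and 2059 probe sets at an unadjusted p under 0.05. The wider list, with 5 called, had 8 with the intensity trend and robust prior, 1 with 12-h terms and 0 under the other 4 settings. With 1 array left out, the counts ranged from 0 to 1 for the 10 genes, from 13 (without ZT02) to 312 (without ZT22) for all probe sets and from 0 to 2 for the wider list. The p-values of the ratios ranged from 0.00278 to 0.167 for Lpin1 over Lpin2, from 0.0611 to 0.944 for Dgat2 over Dgat1 and from 0.0583 to 0.531 for Pnpla3 over Pnpla2, and the first passed after adjustment without ZT18 only (0.00833). The amplitude of Gpam ranged from 0.10, without ZT18 and with a peak at ZT5.14, to 0.26, without ZT14. In the dark and light comparison none of the 10 genes passed under any of 12 alternatives. Both normalizations for the repeat of the clock time were chosen after seeing the data. No cause of these changes was tested. No paired analysis was possible because each time point has 1 array.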
